A study of Danio rerio with 4 samples.

Results

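The genes described are 7 of the 20306 listed for coronary endothelial cells of the injured zebrafish heart: the hyaluronan receptors lyve1a and lyve1b, the scavenger receptors stab1 and stab2, the mannose receptor mrc1a, the receptor gpr182 and the endocytic adaptor dab2. They were chosen by gene symbol, as markers of lymphatic and scavenging endothelium, with their values in the present comparison already known. Their differences between the groups are therefore a description and carry no test. Cells came from cryoinjured ventricles of wild-type zebrafish (genotype WT, age not given) at 7 days after injury. All cells carried -0.8flt1:RFP, a red reporter driven by a fragment of the promoter of flt1, a receptor of vascular endothelial growth factor. RFP+ cells were sorted by cxcr4a:YFP, a yellow reporter of a chemokine receptor gene, into cxcr4a:YFP+ and cxcr4a:YFP- gates, with 2 libraries each. The table heads its columns Regenerating and Non-Regenerating. The labels do not say which gate is which, and Regenerating was taken as the cxcr4a:YFP+ gate from knowledge of the reporter. Nothing in the labels says whether replicates came from separate animals or pools, so the errors given here may be technical and need not reflect variation between fish.

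Lymphatic endothelium and the scavenging endothelium of veins and sinusoids share a set of endocytic receptors that clear macromolecules from tissue fluid and blood. LYVE1 and stabilin-2 bind hyaluronan, the mannose receptor binds sugar-bearing proteins, and GPR182 in mammals takes up chemokines. DAB2 links cargo receptors to clathrin coats. In zebrafish, lyve1b, mrc1a, stab1 and stab2 are known as markers of lymphatic vessels, veins or both, and the coronary vessels and lymphatics of the heart both grow after cryoinjury.

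Values are normalized counts, the authors' gene counts scaled between libraries and rounded to whole numbers. They summed to between 10481747 and 10761712 per library, and no gene exceeded 0.148% of its library. The endothelial marker cdh5, an adhesion molecule of endothelial junctions, read 11674 and 11643 in Regenerating, beside 11920 and 12629 in Non-Regenerating. The receptor gene kdrl read 10626 and 11392 against 11230 and 12236, so endothelial transcripts were abundant in every library. The gene cxcr4a read 2285 and 2242 against 585 and 590, and flt1 read 5496 and 5925 against 6595 and 6649. Transcript lengths were not used here, so levels are compared between libraries and never between genes.

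All 7 genes had a lower mean in Regenerating than in Non-Regenerating, with log2 fold changes (Regenerating minus Non-Regenerating, on log2(value + 1)) between -3.20 and -0.21. In 6 of the 7, both Regenerating values lay under both Non-Regenerating values, where 21.5% of the 16928 genes tested read lower in Regenerating without overlap. A log2 fold change under -1 was seen for 5 of the 7, against 5.54% of all genes tested. The median over the 7 was -1.66, beside 0.0013 over all genes tested. These figures come from the contrast on which the genes were chosen, so nothing is read from them. In bulk libraries, fewer cells of a type and less RNA per cell cannot be told apart, and this holds for every value given. With limma, which fits all genes together, and Benjamini-Hochberg adjustment over all genes, 0 of the 7 had an adjusted p under 0.05. Because the 7 were chosen on this contrast, that count is no test of them. Over all genes 1 was called, the antibody gene ighv1-4 (chosen after its values were seen), which is 0.00591% of those tested, and 12.8% had an unadjusted p under 0.05.

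**Figure D1:**
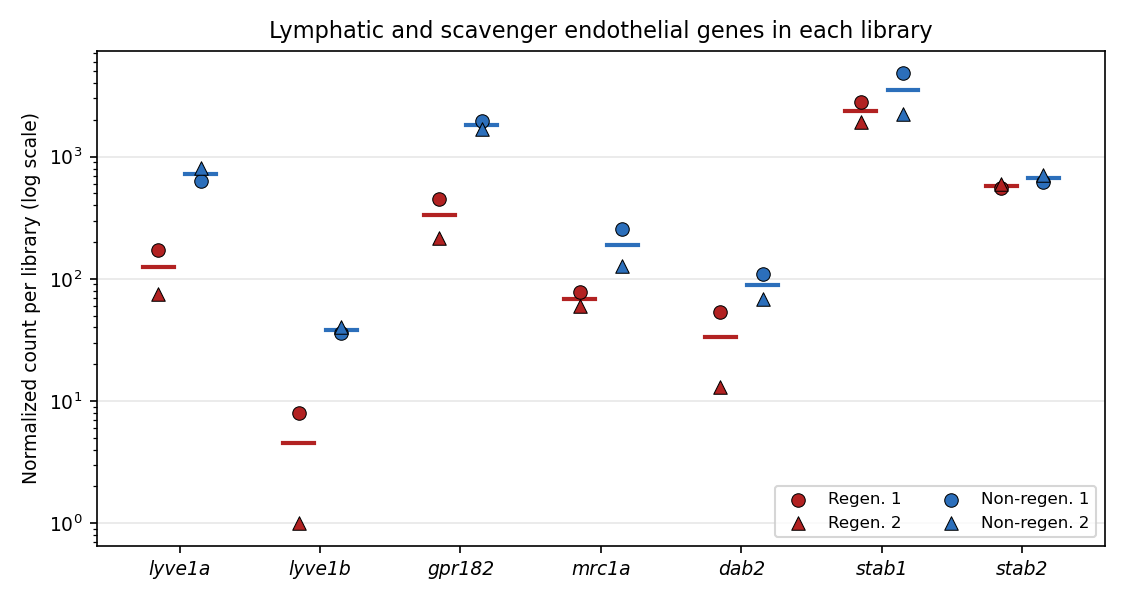
Normalized count (vertical, log scale) of each of the 7 genes (horizontal) in the 4 libraries; circles are replicate 1, triangles replicate 2, red is Regenerating, blue is Non-Regenerating and short lines are group means. The groups are clearly apart for lyve1a, lyve1b and gpr182, close for stab2, and overlap for stab1, where Non-Regenerating replicate 2 at 2241 lies between the Regenerating values of 1930 and 2808.

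On the log2(value + 1) scale, lyve1b and lyve1a had the lowest fold changes of the 7, with gpr182 close behind lyve1a. The gene lyve1a (ENSDARG00000075833, chromosome 7, 66822229 to 66833588, danRer11), which encodes a membrane receptor that binds hyaluronan, read 173 and 75 normalized counts in Regenerating. It read 638 and 808 in Non-Regenerating. Both Regenerating libraries were far below both Non-Regenerating libraries, and replicate 2 was the lower of the Regenerating pair by 2.31 times. Group means were 124 ± 69.3 and 723 ± 120 (SD, n = 2 each), a log2 fold change of -2.64 (SE 0.444), or 6.25-fold lower on that scale. With Regenerating replicate 1 left out it became -3.24, and with replicate 2 of that group left out -2.05. Of all genes tested, 1.01% had a fold change as low or lower, which is a description because lyve1a was chosen on this contrast. Set against cdh5 in the same library, lyve1a gave 14.8 and 6.44 counts per 1000 cdh5 counts in Regenerating, beside 53.5 and 64.0 in Non-Regenerating, so its difference stood beside an endothelial marker that was nearly level.

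The second copy, lyve1b (ENSDARG00000062483, chromosome 18, 16744307 to 16748676), whose reporter lines are used to image zebrafish lymphatics, read 8 and 1 in Regenerating, beside 36 and 40 in Non-Regenerating. It was low in every library and did not overlap between the groups. Its log2 fold change was -3.20 (SE 0.911), the lowest of the 7, but was -1.77 with a pseudocount of 10, where gpr182 was -2.49. It reached the filter on low values, at least 10 in 2 libraries, only through the Non-Regenerating libraries, so among tested genes it had to differ, and it was the only one of the 7 of which that is true. Without Regenerating replicate 2 its log2 fold change was -2.11.

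The lyve1 genes lie in matching neighbourhoods on their chromosomes. On chromosome 7, lyve1a is followed by ampd3a, an AMP deaminase gene, and adma, an adrenomedullin gene. On chromosome 18, lyve1b is followed by rnf141, a RING finger gene, and then ampd3b and admb. Among these neighbours, ampd3a read lower in Regenerating as the lyve1 genes did, near the bottom of the measured range at 4 and 8 against 18 and 17, and the others overlapped or read higher. Like lyve1b, ampd3a reached the filter on low values only through the Non-Regenerating libraries, so among tested genes it had to differ. The gene adma read 2119 and 2044 against 1733 and 1733, and admb read 388 and 326 against 232 and 771. The gene ampd3b read 955 and 392 against 122 and 305, which is higher in Regenerating, and rnf141 read 223 and 281 against 249 and 348, with overlap. None of these neighbours, which were picked after their values were seen, had an adjusted p under 0.05 in limma's fit (0.367 to 0.914).

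The stabilins, large scavenger receptors, differed least. The gene stab1 (ENSDARG00000076484, chromosome 22, 10281420 to 10354381) read 2808 and 1930 in Regenerating, beside 4819 and 2241 in the other gate. The groups overlapped, and Non-Regenerating replicate 1 alone stood high, at 2.15 times replicate 2. The log2 fold change was -0.50 (SE 0.400). Leaving out Non-Regenerating replicate 1 made it 0.055, while leaving out replicate 2 of that group made it -1.05 and leaving out Regenerating replicate 2 made it -0.23, so even its sign rested on Non-Regenerating replicate 1.

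The gene stab2 (ENSDARG00000045748, chromosome 4, 10721795 to 10763547) read 550 and 598 in Regenerating, beside 624 and 708 in the other gate. The values sat close together, without overlap between the groups. Means were 574 ± 33.9 and 666 ± 59.4, a log2 fold change of -0.21 (SE 0.179), and 27.8% of genes tested were as low or lower. It was -0.12 without Non-Regenerating replicate 2. An antisense gene, CR383662.2, lies within the span of stab2 and read 13 and 10 against 18 and 17. Whether counting used the strand is not given in the sources used here, so reads of the 2 genes may be mixed to that small extent.

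The mannose receptor gene mrc1a (ENSDARG00000102100, chromosome 7, 58892856 to 58952382), a marker of zebrafish veins and lymphatics, read 78 and 60 in Regenerating, beside 255 and 127 in the other gate. The Regenerating libraries were close to each other, whereas the Non-Regenerating libraries differed by 2.01 times and both lay above them. The log2 fold change was -1.38 (SE 0.446), or 2.61-fold lower on that scale, and -0.88 without Non-Regenerating replicate 1. Its relative mrc1b differed the other way, without overlap, at 442 and 450 in Regenerating, beside 314 and 116 in Non-Regenerating (log2 fold change 1.22, SE 0.496, limma adjusted p = 0.408). The ratio of mrc1a to mrc1b was 0.176 and 0.133 in Regenerating, beside 0.812 and 1.09 in Non-Regenerating, without overlap. An exact permutation test of 2 libraries against 2 cannot give a two-sided p below 0.333, and mrc1a was chosen on this contrast, so that ratio is a description.

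Among the other relatives of the mannose receptor, 0 of 5 tested genes were called by limma and 0 had an unadjusted p under 0.05, where 5.19% of all genes tested had such a p and read lower and 7.62% had one and read higher. The median log2 fold change of these 5 was 0.20. The endocytic lectin gene ly75 read 1628 and 1392 against 1171 and 1205 (adjusted p = 0.444 with limma), and cd302 read 339 and 335 against 317 and 272. Of the family, mrc1a and, by smaller differences, mrc2 and pla2r1, both named after their values were seen, were below 0 on the log2 scale.

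The gene gpr182 (ENSDARG00000036616, chromosome 23, 36653376 to 36655640), a G protein-coupled receptor that in mammals scavenges chemokines in lymphatic and sinusoidal endothelium, read 451 and 217 in Regenerating. It read 1947 and 1685 in Non-Regenerating. The lowest Non-Regenerating value was several times the highest Regenerating value, and the Regenerating libraries differed from each other by 2.08 times. Means were 334 ± 165 and 1816 ± 185, a log2 fold change of -2.53 (SE 0.371), or 5.77-fold lower on that scale. Leaving out Regenerating replicate 1 gave -3.06, and leaving out replicate 2 of that group gave -2.003.

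Atypical chemokine receptors, which bind and internalize chemokines without the usual signal, lay on both sides of 0. Of 4 tested genes, 0 were called by limma, 1 had an unadjusted p under 0.05 and read lower, and 0 had one and read higher. Over all genes tested those shares were 5.19% lower and 7.62% higher. The lower one, ackr4b, read 838 and 641 against 3846 and 1875 (log2 fold change -1.87, SE 0.370, adjusted p = 0.189). Its paralogue ackr4a read 606 and 782 against 311 and 547 (0.74, SE 0.329, adjusted p = 0.451). The ratio of ackr4b to ackr4a was 1.38 and 0.820 in Regenerating, beside 12.4 and 3.43 in Non-Regenerating, which did not overlap. The gene ackr3a, a receptor for Cxcl12, read 74 and 166 against 0 and 33. Its fitted difference of 4.26 on the log2 scale (SE 1.71, limma adjusted p = 0.403) depends on the value of 0: it was 1.72 with Non-Regenerating replicate 1 left out, and 6.81 with replicate 2 of that group left out.

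**Figure D2:**
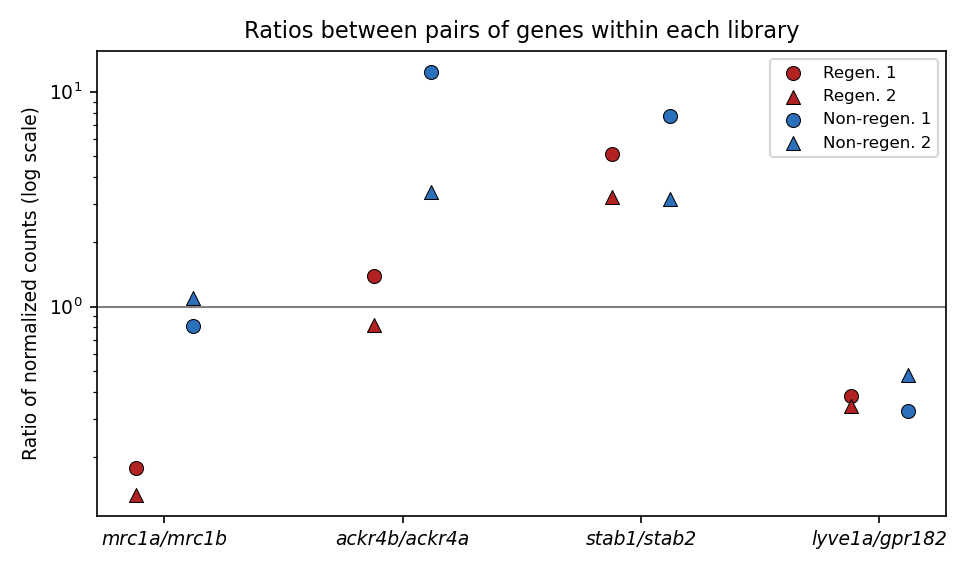
Ratio of the normalized counts of pairs of genes (vertical, log scale) in each library; red is Regenerating, blue Non-Regenerating, circles replicate 1 and triangles replicate 2. The mrc1a to mrc1b and ackr4b to ackr4a ratios are lower in both Regenerating libraries, whereas stab1 to stab2 and lyve1a to gpr182 overlap between the groups.

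The adaptor gene dab2 (ENSDARG00000031761, chromosome 5, 32323775 to 32338872), which couples lipoprotein and growth factor receptors to clathrin, read 54 and 13 in Regenerating, beside 109 and 69 in the other gate. The groups did not overlap, but the Regenerating libraries differed by 4.15 times, more than the group means did (2.66 times). The log2 fold change was -1.66 (SE 0.759). With Regenerating replicate 2 left out it was -0.67, and with replicate 1 left out -2.65, so its size rested on those libraries.

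The remaining clathrin machinery was nearly level. Of 29 tested coat, adaptor and dynamin genes, 0 were called by limma, 1 had an unadjusted p under 0.05 and read higher, and 0 had one and read lower. Over all genes tested those shares were 7.62% higher and 5.19% lower. The median log2 fold change of the 29 was -0.02, within a range of -0.42 to 1.63. The 1 gene was dab1a, an adaptor related to dab2, at 33 and 70 against 17 and 13 (log2 fold change 1.63, SE 0.587, adjusted p = 0.361). The accessory factor gene eps15l1a read 918 and 631 against 511 and 500, and the dynamin gene dnm2a 1207 and 1009 against 790 and 884. The clathrin heavy chain gene cltca, picked after its values were seen, read 6427 and 6007 against 7633 and 6720.

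**Figure D3:**
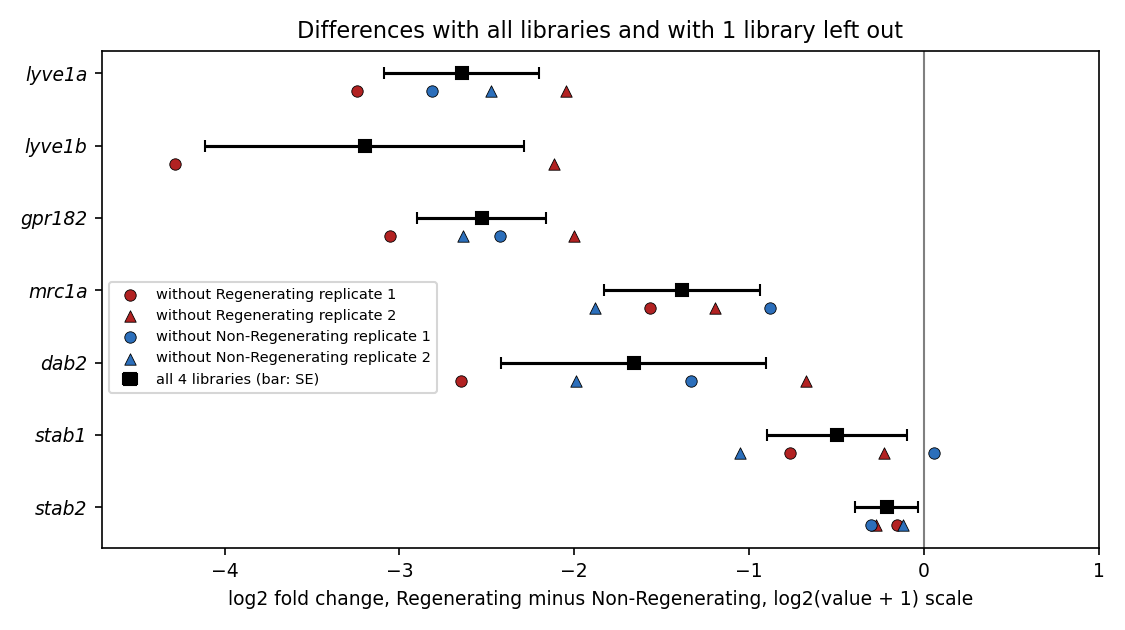
log2 fold change, Regenerating minus Non-Regenerating (horizontal), of each of the 7 genes with all 4 libraries (black squares, bars are SE) and with 1 library left out (coloured points). The genes lyve1a and gpr182 stay below -2 in each case, dab2 ranges from -2.65 to -0.67, and stab1 crosses 0 at 0.055 without Non-Regenerating replicate 1. No points are shown for lyve1b without a Non-Regenerating library, because it then missed the filter on low values.

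The 7 genes fell into unlike profiles over the 4 libraries. Likeness was measured as the Euclidean distance between log2(value + 1) values, each centred on the gene's mean over the 4 libraries, where 0 is an identical profile. The distances include the group difference on which the 7 were chosen, so nearness among them is a description and carries no test. How many genes lie nearer also depends on the size of a gene's differences, so such counts are not compared between genes. The genes lyve1a and gpr182 were 0.417 apart, and 3 of all genes tested were nearer to lyve1a than gpr182 was. The ratio of lyve1a to gpr182 held between 0.328 and 0.480 in the 4 libraries. From lyve1a, lyve1b was 0.895 away with 42 genes nearer, and dab2 1.33 away with 171 genes nearer. In contrast, stab2 was 2.61 from lyve1a with 4188 genes nearer, and stab1 2.42 with 2271 nearer. The stabilins were 1.06 apart, with 6928 genes nearer to stab1 than stab2 was. The ratio of stab1 to stab2 ran from 3.17 to 7.72, with replicate 1 above replicate 2 in each group.

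Among genes with a mean of at least 50, the nearest profiles over the 4 libraries belonged to varied genes. The gene net1, a guanine nucleotide exchange factor, was nearest to both lyve1a (distance 0.370) and gpr182 (0.137), at 692 and 327 against 2639 and 2509. Next nearest to gpr182 was sting1, a sensor adaptor of innate immunity (0.239). Nearest to lyve1b were frzb, a secreted Wnt antagonist (0.411), and hapln1b, a hyaluronan link protein (0.562). The gene mrc1a was nearest to meis1b, a homeobox factor (0.145), and hmcn1, a large matrix protein (0.148). Nearest to dab2 were si:ch211-158d24.4 (0.264) and the growth factor gene tgfb1a (0.278). The stabilins, whose differences were small, had many genes within short distances, led by plpp2a (0.0594) and nop14 (0.0715) for stab1 and rap1aa (0.0310) and si:ch1073-322p19.1 (0.0325) for stab2. With 4 libraries, such likeness is a description only.

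**Figure D4:**
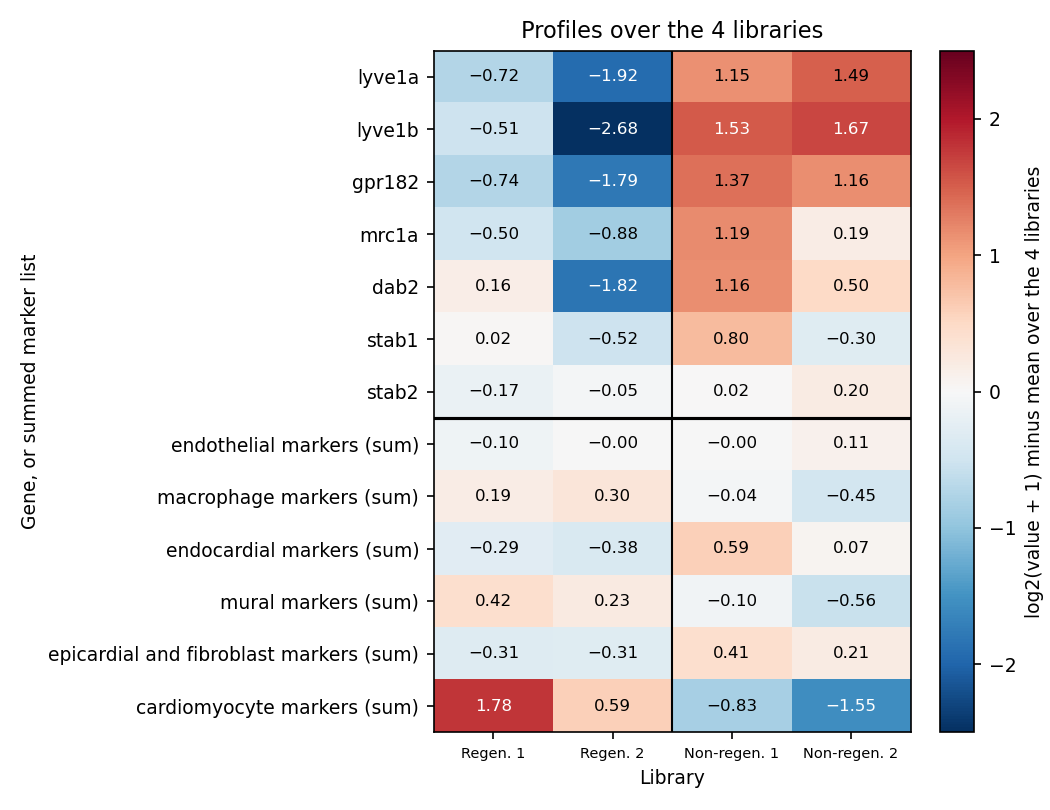
log2(value + 1) minus its mean over the 4 libraries (colour and printed value) for the 7 genes and for the summed values of each cell type marker list (rows) in each library (columns). The genes lyve1a, lyve1b and gpr182 are lowest in Regenerating replicate 2 and high in both Non-Regenerating libraries, stab1 and mrc1a are highest in Non-Regenerating replicate 1, and the endothelial sum is nearly level.

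The wider lymphatic programme lay on both sides of 0. Of its 25 named genes, 22 matched a row and 21 were tested; limma called 0, while 5 had an unadjusted p under 0.05 and read higher and 5 had one and read lower. Over all genes tested, 7.62% had such a p and read higher and 5.19% had one and read lower. Without overlap, 9 of the 21 read higher and 8 lower, where 21.8% and 21.5% of all genes tested did. The list was chosen with earlier results of these data known. Its median log2 fold change was 0.17, beside 0.0013 over all genes. The transcription factor gene prox1a, which sets lymphatic identity, read 444 and 64 in Regenerating, beside 187 and 120 in Non-Regenerating. Regenerating replicate 1 was the highest and replicate 2 the lowest of the 4, so the groups overlapped. The factor gene sox18, which acts with prox1a in lymphatic identity in mammals and was named after its values were seen, read 2667 and 2897 against 2727 and 3175, also with overlap. The 5 lower genes included nr2f2, a venous factor that acts upstream of prox1a in mammals, at 756 and 719 against 2545 and 2003 (log2 fold change -1.61, SE 0.172, limma adjusted p = 0.130). They also included the forkhead gene foxc1a, at 166 and 86 against 995 and 470 (-2.51, SE 0.497, adjusted p = 0.189 with limma).

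Genes of the Vegfc pathway lay on both sides of 0. The lymphatic growth factor gene vegfc read 573 and 797 against 320 and 209, and adamts3, whose protease activates that ligand, 138 and 280 against 67 and 52. Their limma adjusted p were 0.202 and 0.242. The gene of the related ligand, vegfd, read 41 and 6 against 34 and 21, and svep1, a matrix protein needed for lymphatic growth, 63 and 51 against 39 and 60, both with overlap. Also of the list, ccbe1 (33 and 43 against 25 and 11) and adamts14 (21 and 23 against 3 and 12) read higher without overlap. Neither had an unadjusted p under 0.05. The Vegfc receptor gene flt4 read 385 and 103 against 668 and 592 (adjusted p = 0.381 with limma). Its co-receptor genes went opposite ways, nrp2a at 682 and 896 against 217 and 180 (log2 fold change 1.98, SE 0.243, limma adjusted p = 0.157) and nrp2b at 272 and 221 against 828 and 492 (-1.38, SE 0.317, limma adjusted p = 0.206). Other genes of the lymphatic list with an unadjusted p under 0.05 were tbx1 and angpt2a, higher, and mafba, lower. Apart from nrp2a, these genes and those of the Vegfc pathway were singled out after their values were seen.

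Hyaluronan is a ligand of the LYVE1 proteins and of stabilin-2. Genes that make, bind or cut it, and relatives of such genes, mostly read lower. Of 20 tested, 15 had a log2 fold change below 0, against 49.8% of all genes tested, and the median was -0.47. While limma called 0, 5 had an unadjusted p under 0.05 and read lower and 1 had one and read higher. Over all genes tested those shares were 5.19% and 7.62%. The link protein gene hapln3 read 187 and 133 against 600 and 496 (-1.78, SE 0.275, adjusted p = 0.164 with limma). The related hapln1b read 166 and 37 against 1002 and 652 (-3.34, SE 0.732, adjusted p = 0.202 with limma). The gene cemip and the hyaluronidase family genes hyal2b and hyal4 were also among the 5, all 3 named after their values were seen. The gene hyal2b read 1075 and 511 against 5223 and 2053, cemip 106 and 103 against 714 and 293, and hyal4 27 and 0 against 710 and 133. Others of the list, hyal1, hyal2a and cemip2, overlapped between the groups, and bcan, cd44b and hmmr read higher without overlap. These too were named after their values were seen. The single higher gene at an unadjusted p under 0.05 was cd44a, the other main surface receptor for hyaluronan. It read 1168 and 1706 against 291 and 556 (1.81, SE 0.373, adjusted p = 0.192 with limma). So lyve1a and lyve1b read lower in the libraries where cd44a read higher. The deposited annotation gives the term hyaluronic acid binding to 9 genes, of which lyve1a and stab1 are 2. Of the 6 others tested, 4 were below 0 and 2 above, with 0 called by limma and 3 at an unadjusted p under 0.05.

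Other scavenger and lipoprotein receptors did not follow the 7 genes. Of 18 tested, 0 were called by limma, 3 had an unadjusted p under 0.05 and read higher, and 0 had one and read lower, with a median log2 fold change of 0.15. Over all genes tested, 7.62% had such a p and read higher and 5.19% had one and read lower. The endocytic receptor gene lrp1ab read 694 and 884 against 332 and 232 (1.49, SE 0.266, adjusted p = 0.176 with limma). The sorting receptor gene sort1b read 566 and 740 against 139 and 34. Its difference on the log2 scale was 3.21 (SE 0.681, adjusted p = 0.197 with limma), which was 2.21 without Non-Regenerating replicate 2 and 4.21 without replicate 1 of that group. The scavenger collectin gene colec12 read 886 and 1060 against 688 and 590. The macrophage and endothelial receptor scarf1, named after its values were seen, read 3083 and 3482 against 2531 and 3574, so its groups overlapped.

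**Figure D5:**
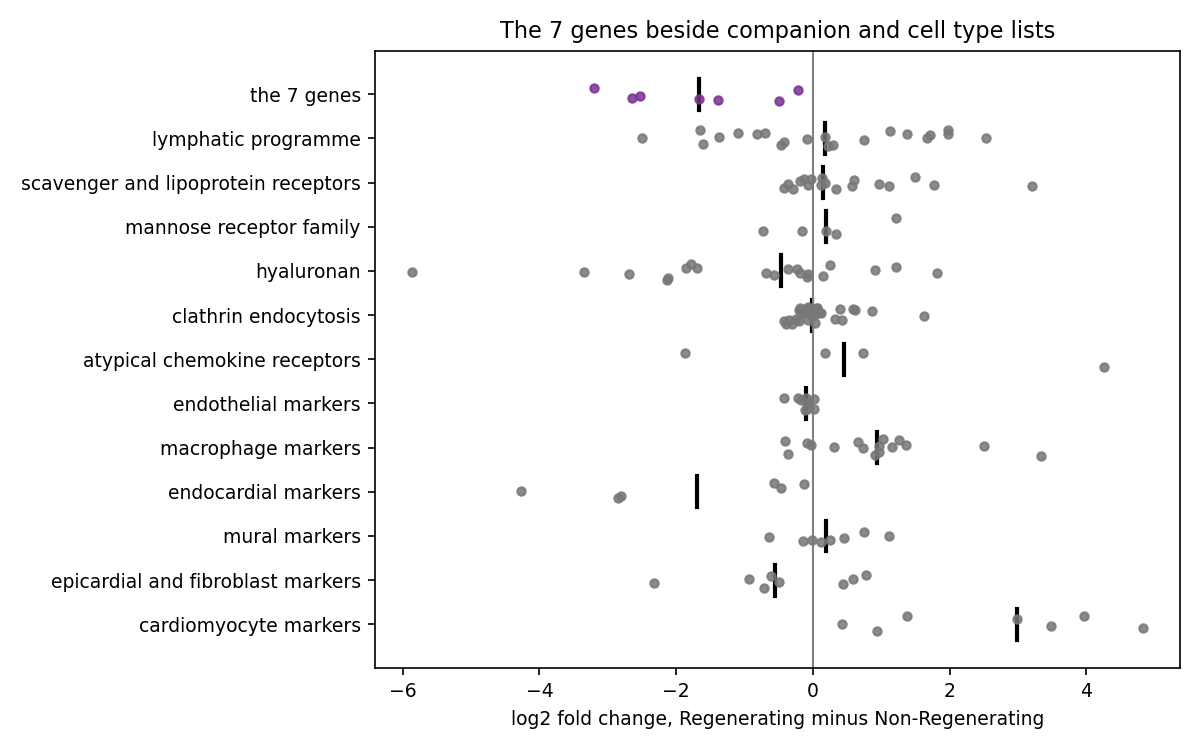
log2 fold change, Regenerating minus Non-Regenerating (horizontal), of each tested gene in the companion and cell type lists (rows); purple points are the 7 genes, grey points the other lists and black bars medians. The 7 genes lie between -3.20 and -0.21 with a median of -1.66. The lymphatic programme spans both sides of 0 with a median of 0.17, and the clathrin list centres on -0.02. Endocardial markers have a median of -1.69 within a wide range, -4.27 to -0.13.

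Markers of other cell types also read unequally in the groups. Over all genes tested, 5.19% had an unadjusted p under 0.05 and read lower, and 7.62% had one and read higher. Those shares stand beside the counts of every cell type below. Endocardium, the inner lining of the heart, shares scavenger genes with venous endothelium. The 6 markers used for it were all below 0 with a median log2 fold change of -1.69, within a range of -4.27 to -0.13. That median fell in a gap between nfatc1 (-0.57) and gata4 (-2.81), while notch1b was at -0.47 and klf2a at -0.13. Of the 6, 4 had an unadjusted p under 0.05 and read lower, and limma called 0. They summed to 7689 and 7217 in Regenerating, beside 14135 and 9874 in Non-Regenerating. The cardiac factor gene gata5 read 601 and 207 against 3586 and 1819 (-2.85, SE 0.589, adjusted p = 0.192 with limma). The gene gata4 read 36 and 12 against 197 and 119, and the neuregulin gene nrg1 9 and 1 against 121 and 60. Like lyve1b, nrg1 reached the filter on low values only through the Non-Regenerating libraries, so among tested genes it had to differ. It is among the 4 at an unadjusted p under 0.05. The genes gata5, gata4 and nrg1 thus read lower together with lyve1a and gpr182, but klf2a (3164 and 3700 against 3589 and 3903) and notch1b (2111 and 1264 against 3417 and 1501) overlapped. Like lyve1a, gpr182 and dab2, gata5, gata4, nrg1 and notch1b were lower in Regenerating replicate 2 than in replicate 1. That order held for 49.5% of all genes tested. In contrast, nfatc1 (1768 and 2033) and klf2a were higher in replicate 2 of that group. In Non-Regenerating, gata5, gata4, nrg1 and notch1b were again lower in replicate 2, as were gpr182 (1947 and 1685) and dab2 (109 and 69). But lyve1a was higher in that replicate, at 638 and 808. The genes klf2a, notch1b and nfatc1 were named after their values were seen. Epicardial and fibroblast markers, 8 genes of which 4 had an unadjusted p under 0.05 and read lower and 1 had one and read higher, summed to 15122 and 15221 against 24997 and 21737. The collagen genes col1a1a and col1a2 and the proteoglycan gene dcn (2567 and 2269 against 4566 and 4622) were lower. Of the 8, 3 were above 0. Among them, postnb (1569 and 1839 against 1002 and 978) and tbx18 (160 and 161 against 104 and 110) did not overlap. Both were named after their values were seen. No endocardial or fibroblast marker was at 0 in any library. Their part in the values of the 7 genes was not tested.

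Macrophages express relatives of these genes, and in mammals also genes of the set itself, STAB1 and MRC1 among them. The 16 macrophage markers summed to 9885 and 10631 in Regenerating, beside 8392 and 6306 in Non-Regenerating, the opposite order to the 7 genes, with 4 at an unadjusted p under 0.05 and higher, 0 lower and 0 called by limma. The myeloid factor gene spi1b read 410 and 597 against 75 and 31, the leukocyte phosphatase gene ptprc 586 and 680 against 191 and 64, and lcp1, an actin-bundling protein of leukocytes, 2585 and 2950 against 1626 and 1892. Of the 16, 12 were above 0 and 4 below (csf1rb, cd74a, cd74b and lgals3bpb). Without overlap, 6 read higher and 0 lower, where 21.8% and 21.5% of all genes tested did. The macrophage gene mpeg1.1 overlapped at 276 and 152 against 202 and 49, as did marco, c1qa, c1qb and c1qc. The largest values in the sums were those of lcp1, cd74a and cd74b. Apart from lcp1, these genes were named after their values were seen. Within Non-Regenerating, the macrophage sum in replicate 1 was 1.33 times that in replicate 2, in the library where mrc1a and stab1 were also higher. This order was not particular to macrophage markers. The same ratio was 1.66 for the cardiomyocyte sum, 1.43 for the endocardial, 1.37 for the mural and 1.15 for the epicardial and fibroblast sum. It was 0.925 for the endothelial sum. None of the 16 was at 0 in any library, and their part in the values of the 7 genes was not tested. Cardiomyocyte markers, 7 of 7 at an unadjusted p under 0.05 and higher with 0 called by limma, summed to 30885 and 13540 against 5059 and 3055. Examples are the sarcomere genes ttn.2 (8591 and 1884 against 137 and 144), ttn.1 and myh7l, of which ttn.1 and ttn.2 are close copies with uncertain separate values. Mural markers, 2 of 8 at an unadjusted p under 0.05 and higher with 0 lower and 0 called, summed to 17636 and 15480 against 12328 and 8971. Much of these sums came from the smooth muscle gene myh11a (7757 and 7956 against 4029 and 3298) and from rgs5a (3146 and 4365 against 2488 and 1963). The gene tagln overlapped between the groups at 1024 and 210 against 465 and 244, and 3 of the 8 were below 0, among them the pericyte receptor gene pdgfrb, named after its values were seen, at 1046 and 195 against 1674 and 295. Heart muscle, mural and endocardial sums were higher in Regenerating replicate 1 than in replicate 2, as were 6 of the 7 genes and 49.5% of all genes tested. The endothelial, macrophage, and epicardial and fibroblast sums had the other order. This too was not tested as a factor.

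Endothelial markers themselves were close to level, though mostly slightly lower in Regenerating. Of 10 tested, 0 were called by limma and 0 had an unadjusted p under 0.05, with a median log2 fold change of -0.10. Of the 10, 8 were below 0. Without overlap, 4 read lower and 0 higher, where 21.5% and 21.8% of all genes tested did. Their sums were 55563 and 59562 against 59659 and 64487, also without overlap. The largest difference was that of the transcription factor gene erg, at 904 and 1143 against 1405 and 1322, or -0.42 on the log2 scale (SE 0.174, adjusted p = 0.416 with limma). The receptor gene tie1 read 9024 and 10013 against 10077 and 11360.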

How the data were processed

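Each of the 4 libraries was made from about 5 ng of RNA of sorted cells by SMART-Seq v4 pre-amplification of cDNA, per the labels' protocols. The build danRer11 and the tools DESeq2 1.36.0, STAR 2.7.11a, featureCounts 2.0.4, Trimmomatic 0.39 and Picard 3.1.1 are listed, without role or order, per the submitters' processing notes. The deposited values are the authors' normalized counts rounded to whole numbers, recorded as a score because they are neither raw counts nor a rate; raw read numbers were not recovered. If duplicate reads were removed, high values would be compressed; the sources used here do not say.

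Genes that reached 10 in 2 or more libraries, 16928 of 20306, entered a fit of log2(value + 1) with limma 3.58.1 in R 4.3.3 (mean-variance trend, 2 residual degrees of freedom), with Benjamini-Hochberg adjustment at 0.05 over all genes. No count model was used. The pseudocount understates folds of low genes. The fit was tested on simulated data. Of 183 companion names in 12 lists, 156 matched exactly 1 row and 151 were tested; 1 name with several rows was not used. The 7 genes and all lists were chosen with earlier results of these data known. Named were the 7 genes, the 3 genes of smallest unadjusted p in each list, the 2 nearest profiles of each of the 7, and cdh5, kdrl, prox1a, cxcr4a and flt1; others are said to have been singled out. Genes were not compared by length, and sequences were not used here. Alternatives were the replicate block, each library left out in turn, a fit without the variance trend, and changed scaling, pseudocount and filter.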

Additional observations from a re-analysis of the deposited data

How the results depend on the processing

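All 7 genes kept a log2 fold change below 0 under every alternative in which they were tested, except stab1, which was 0.055 without Non-Regenerating replicate 1. The changed filters, the fit without the variance trend and the replicate block leave every gene's fold change as it was. Those alternatives therefore could not alter a direction, and the 7 were chosen on this contrast. The median over the 7 ranged from -2.65 to -1.11 when 1 library was left out, and lyve1b then missed the filter without either Non-Regenerating library, as it did with a filter of 50. With a pseudocount of 10, lyve1b was -1.77. Leaving out 1 library moved each of the 7 except stab2 by more than the SE of its fold change.

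With limma, 1 gene was called over the whole table in 6 alternatives, 0 without the variance trend, and 0 to 0 when 1 library was left out. Genes of the companion lists at an unadjusted p under 0.05 numbered 24 higher and 19 lower, and 20 to 31 higher and 13 to 22 lower without 1 library. Same-numbered libraries share only a number in the labels, and their deviations from group means correlated at 0.339 across genes. With that number as a replicate block, limma called 357 genes, with 37 companion genes higher and 29 lower at an unadjusted p under 0.05. Of the 7 genes, gpr182 then passed the threshold, but the 7 were chosen on this contrast, so that is no test of it. Of 36 named companion genes, 16 were then called. In the other alternatives they kept their direction and their side of the threshold, except tagln, which was -0.0029 without Non-Regenerating replicate 2 and -0.68 to 1.601 without 1 Regenerating library, the lower value without replicate 1. Of 288 list counts under alternatives, 37 moved by over 1.5 times. With 2 libraries a group, and a single library left in 1 group assumed to vary like the rest when 1 is left out, the spread is poorly known, and values under about 10, as for lyve1b in Regenerating, give little precision.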

Other observations

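Some genes next to the 7 on their chromosomes also read lower in Regenerating. Of the 28 genes that are the 2 neighbours on each side, 25 were tested, with a median log2 fold change of -0.12. Of these 25, 5 had a log2 fold change under -1, where 5.54% of all genes tested did, and 1 had one over 1. Among the 5 was ampd3a, which reached the filter on low values only through the Non-Regenerating libraries. The growth factor binding protein gene igfbp6b, 47539 bases from gpr182, read 245 and 180 in Regenerating, beside 2052 and 1782 in Non-Regenerating. Between igfbp6b and gpr182 lies pip4k2ca, a lipid kinase gene, which was nearly level at 2376 and 2576 against 2674 and 2681. The gene gas1b, a membrane protein of hedgehog signalling 21464 bases from dab2, read 58 and 51 against 384 and 139. The neurotensin gene nts, 404405 bases from lyve1b, read 79 and 43 against 261 and 180. These neighbours were picked after their values were seen and were given no test of their own.

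The deposited annotation gives the term lymphangiogenesis to 16 genes, among them lyve1a and stab1. Of the 13 others tested, 9 were below 0 and 4 above, and limma called 0. At an unadjusted p under 0.05, 2 read lower and 2 higher, where 5.19% and 7.62% of all genes tested did. Among these, the channel gene pkd2 read 695 and 721 in Regenerating, beside 1194 and 1275 in Non-Regenerating (log2 fold change -0.80, SE 0.149, limma adjusted p = 0.177). The Wnt ligand gene wnt5b read 12 and 27 against 121 and 49, and the endodermal factor gene sox32 read 32 and 15 against 2 and 7. The gene sox32 reached the filter on low values only through the Regenerating libraries, so among tested genes it had to differ. These 3 genes were singled out after their values were seen.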
